A study of Mus musculus with 12 samples.

Results

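The cytosolic ribosome is built from ribosomal RNA and a set of proteins, most of them present once per particle, and the genes of those proteins were examined in mouse spinal cord. Genes named Rpl or Rps with a number and at most a closing a, x or l were taken, together with Rplp0, Rplp1, Rplp2 and Rpsa. That rule matched 80 of 38924 gene rows, and the 76 with a mean TPM of at least 1 (a level scaled by transcript length and library size) were kept. They comprise 43 genes of the large subunit, 3 of its stalk and 30 of the small subunit, and lie on 19 chromosomes.

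Whole spinal cords of 12 mice aged 8 weeks were sequenced as polyA RNA, on a mixed B6J;FVB strain background. The ETAQ group held 6 mice heterozygous for the delETAQ allele of Gars (genotype ETAQ+/-), 3 females and 3 males. The WT group held 6 mice without the allele (ETAQ+/+), again 3 females and 3 males. Gars encodes the synthetase that joins glycine to its tRNA, the deletion takes a run of amino acids out of that enzyme, and the comparison asks what the heterozygous cord changes. The ETAQ mice carried the numbers 1, 5, 6, 8, 9 and 11, and the WT mice the numbers 2, 3, 4, 7, 10 and 12. Among mice 1 to 6, ETAQ mouse 1 was the one female, and among mice 7 to 12, ETAQ mouse 11 was the one male, so sex and mouse number nearly coincide. The labels do not call the numbers a batch, and they name 2 library kits but assign no library to either. Each library came from a separate mouse.

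Libraries held 23595944 to 41452700 expected counts, and no kept ribosomal protein gene had fewer than 142.72 counts in any library. The first principal component of all genes took 41.3% of the variance and separated mice 1 to 6 from mice 7 to 12. Markers of neurons, astrocytes, oligodendrocytes and microglia were present in every library, and 1 of 6 neuronal and 1 of 3 astrocyte markers passed for genotype. Summed neuronal markers spanned 3069 to 3297 in ETAQ and 3225 to 3471 normalised CPM (CPM scaled by TMM factors) in WT cords, and summed astrocyte markers 2766 to 3396 in ETAQ and 2268 to 2969 in WT cords. Gars itself averaged 145 ± 5.79 in ETAQ and 127 ± 4.95 normalised CPM in WT cords (SD, n = 6 each), with an edgeR adjusted p of 0.00408; counts per gene cannot show the deletion, so this does not check the allele.

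The large subunit joins amino acids and the small subunit reads the messenger RNA. Ribosomal protein mRNAs are short, abundant and often begin with a run of pyrimidines, the terminal oligopyrimidine tract, through which mTOR complex 1 sets how strongly they are translated, so their mRNA level and the making of ribosomes can part. In neurons, ribosome-rich rough endoplasmic reticulum forms the Nissl bodies by which spinal motor neurons are classically recognised. Over evolution these mRNAs have been copied back into the genome many times, which leaves near-identical copies.

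Those copies bear on many of the values here, so 4 pairs with many counts in the copy are shown first. Each line gives coding bases of the GENCODE M21 transcripts (GRCm38), 5′ to 3′; the authors' build was not given, so positions describe this reference. Rps6, the small-subunit protein that S6 kinase phosphorylates, lies at chr4:86854660-86857412 on the minus strand, and Rps6-ps4 at chr2:75191073-75191822 on the minus strand. Rpl5, which enters the large subunit with 5S ribosomal RNA, lies at chr5:107900502-107909005 on the plus strand, and its copy Gm15500 at chr7:114705217-114706235 on the minus strand. Rps27, a small-subunit protein, lies at chr3:90212522-90213651 on the minus strand, and Gm9846 at chr9:114982366-114982739 on the minus strand. These 3 pairs are identical over all 747, 891 and 252 coding bases, so 1 line of the first 75 coding bases serves both genes. Rpl3, a large-subunit protein near the peptidyl transferase centre, lies at chr15:80077791-80091868 on the minus strand, and Rpl3-ps1 at chrX:13202571-13203780 on the plus strand. Their lines run from coding base 20 to 94, and the capital marks the base that differs, C57A counted from the first coding base of Rpl3.
Rps6 and Rps6-ps4: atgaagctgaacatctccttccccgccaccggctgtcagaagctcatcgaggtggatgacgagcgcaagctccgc
Rpl5 and Gm15500: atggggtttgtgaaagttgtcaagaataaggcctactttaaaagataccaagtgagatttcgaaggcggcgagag
Rps27 and Gm9846: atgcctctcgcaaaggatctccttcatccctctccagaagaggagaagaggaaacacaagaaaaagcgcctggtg
Rpl3: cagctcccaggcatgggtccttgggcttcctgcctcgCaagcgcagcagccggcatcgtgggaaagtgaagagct
Rpl3-ps1: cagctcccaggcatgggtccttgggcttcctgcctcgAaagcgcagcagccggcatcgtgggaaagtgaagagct

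Rpl3 and Rpl3-ps1 differ at 2 of 1209 coding bases, the other being T786C, and share an unbroken run of 728 bases. A read of 75 bases that lies within a shared stretch carries no letter that tells the genes apart. The authors' counting software divides such reads between genes by an estimate.

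The division took a large share of the ribosomal protein reads. A copy was defined as a gene row with at least 20% of its own 75-base sequences in the transcripts of the ribosomal protein gene. By that definition 20.2% of all counts of the 76 genes and their copies were assigned to the copies. For 41 genes the copies took under 1%, for 27 genes at least 10%, for 16 genes at least 50%, and for 6 genes at least 90%. The last were Rps6 with 95.1%, Rpl31 with 91.9%, Rpl5 with 91.8%, Rpl12 with 91.5%, Rpl27 with 91.3% and Rpl28 with 90.3%. In each of these 6 families most of the counts were assigned to the copies, and the gene each read came from is not known. Of the 76 genes, 66 shared at least 5% of their 75-base sequences with another gene and are uncertain for that reason; the median share was 16.6%, the lowest 0% and the highest 70.9%, for Rpl36.

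**Figure D1:**
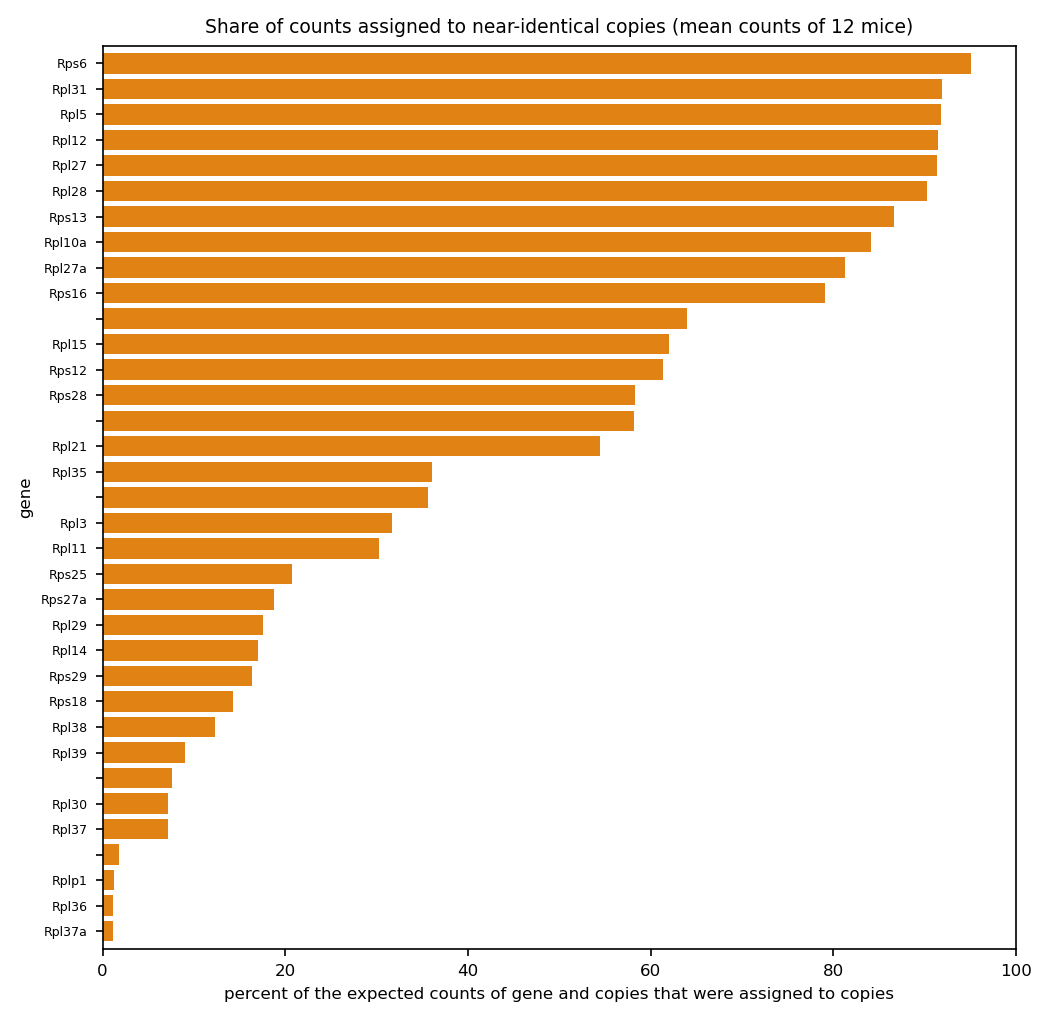
The percent of expected counts of each gene and its copies together (x axis) that were assigned to the copies, for each ribosomal protein gene with at least 1% there (y axis, with names for genes given in the text), as means over 12 mice. Rps6 leads with 95.1%, and 6 genes exceed 90%.

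Rps27 itself was listed at 0 counts in all 12 libraries, while Gm9846 held 1773 to 3692 counts per library. A count of 0 allows up to 3 counts, which was 0.0724 to 0.127 CPM (counts scaled by library size) depending on the library; this limit covers counting error only. Gm9846 stood at 1142 ± 67.3 TPM in ETAQ and 1108 ± 109.6 TPM in WT cords (SD, n = 6 each), and its log2 fold change was 0.02 (edgeR adjusted p = 0.951). Rps27 therefore falls outside the 76 genes by the TPM minimum.

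Rpl3 and Rpl29, both of the large subunit, each stood at 2 levels among the mice, and the cause was not tested. Rpl3 had 193, 185, 407, 407, 187 and 404 normalised CPM in ETAQ mice 1, 5, 6, 8, 9 and 11, against 411, 190.2, 209, 394, 197 and 192 in WT mice 2, 3, 4, 7, 10 and 12. It held 99.9% to 100% of the counts of Rpl3 and its copies in 5 mice (ETAQ 6, 8 and 11, WT 2 and 7) and 46.6% to 47.8% in the other 7. Summed with its copies, Rpl3 spanned 388 to 407 normalised CPM in ETAQ and 394 to 438 in WT cords, so the sum does not show the 2 levels. Rpl29 had 37.3, 38.6, 82.8, 71.5, 73.5 and 35.4 normalised CPM in ETAQ mice, in the same order, against 74.8, 80.2, 82.3, 76.1, 35.8 and 70.9 in WT mice. With its copies it spanned 71.7 to 84.4 in ETAQ and 71.2 to 82.7 in WT cords. Both levels of each gene occur in both genotypes and in both sets of mouse numbers. Among the 76 genes, Rpl29, Rpl3, Rps12 and Rps16 had the largest quasi-likelihood spread, and Rpl4, Rpsa, Rpl6 and Rpl7a the smallest. The median biological coefficient of variation was 0.0963 for genes with at least 10% of counts in copies, 0.0636 for genes with under 1%, and 0.0892 over all genes tested.

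Most of the 76 genes were abundant: 63 averaged at least 100 TPM. The highest were Rpl13a at 1208 TPM, the stalk protein Rplp1 at 1175 TPM, Rps24 at 1165 TPM and the zinc-binding small-subunit protein Rps29 at 1133 TPM. The lowest were Rpl31 at 20.7 TPM, Rpl12 at 21.6 TPM, Rpl5 at 22.8 TPM and Rpl24 at 24.9 TPM. With copies added, Rpl31 reached 1039 TPM, Rpl12 403 TPM and Rpl5 353 TPM, whereas Rpl24 has no copy by the definition used and stayed at 24.9 TPM. The highest sums were then Rps29 at 1805, Rps28 at 1419, Rpl13a at 1208 and Rplp1 at 1189.7 TPM. The low levels of Rpl31, Rpl12 and Rpl5 thus change rank with the way shared reads are counted. Rpl24 was among the lowest genes in TPM but not in normalised CPM. Its mean transcript length was 4683 bases, against a median of 715 bases over the 76 genes, and TPM is divided by length. In normalised CPM, which is not divided by length, Rpl24 spanned 59.1 to 72.9 over all mice. That lies within the 54.9 to 74.0 of Rpl38, which had 665 to 844 TPM at a mean transcript length of 369 bases. In every mouse Rpl24 was below the median normalised CPM of the 76 genes.

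Tissue-restricted relatives were nearly silent. Rpl3l, the striated muscle relative of Rpl3, had 211 counts over all libraries, 2 to 17 per ETAQ library and 5 to 87 per WT library, with a log2 fold change of −0.84 that did not pass (edgeR adjusted p = 0.731). It had 12 to 87 counts in mice 1 to 6 and 2 to 8 in mice 7 to 12 (log2 2.18, edgeR adjusted p = 0.0912). The 87 counts were in WT mouse 2, where summed skeletal muscle markers were highest at 743 normalised CPM, and the part of muscle RNA in these counts was not tested. Rpl39l and Rpl10l, relatives known from testis, had 6 counts and 0 counts in all. Other relatives were well expressed: Rpl22l1 stood at 223 TPM beside 250.1 for Rpl22, Rpl36al at 273 beside 355 for Rpl36a, Rpl7l1 at 23.1 beside 339.6 for Rpl7, and Rps27l at 58.6 TPM beside Rps27 listed at 0. Ribosomal protein genes that the name rule misses were also abundant, with Rps3a1 at 575 TPM, Rack1 (Gnb2l1 in the tables) at 157 TPM and Fau at 132 TPM.

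In ETAQ cords no ribosomal protein gene passed the test against WT. With edgeR's quasi-likelihood test, sex as a covariate and adjustment over all 17189 genes tested, 0 of 76 passed an adjusted p of 0.05, where 1.92% of all genes did. The median log2 fold change was −0.02 (0.00 over all genes), with 20 of the 76 above 0 and a range from −0.30 for Rpl29 to 0.16 for Rps13; the median was 0.00 with 41 above 0 when library totals replaced the TMM factors, and 0.02 with 52 above 0 on log2(TPM + 1). Over all genes, library totals gave 134 higher and 162 lower calls, where TMM gave 100 higher and 230 lower. At an unadjusted p under 0.05 there was 1 gene lower, Rpl5, and none higher, against 6.36% lower and 4.53% higher over all genes. DESeq2 also called 0 (2.94% of all genes) and had 4 genes under an unadjusted 0.05. No gene had ETAQ and WT values that did not overlap, against 0.657% higher and 1.35% lower over all genes.

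For most genes the intervals left room for only a small change in the whole-cord value. The 95% interval of the fold change lay within 1.2-fold either way for 64 of 76 genes, compared with 10292 of the 17189 tested, and within 1.1-fold for 37. With each gene summed with its copies, all 76 intervals lay within 1.2-fold and 52 within 1.1-fold. The summed values ran from −0.09 to 0.07 on the log2 scale, with a median of −0.03 and 0 of 76 called (1.95% of all rows in that fit). The sums hold reads from copies that may be transcribed in their own right, which cannot be told apart here. In whole tissue, fewer cells of a type and less RNA per cell cannot be told apart either. A change confined to a small part of the cells is diluted in the whole-cord value, so these intervals do not bound it.

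**Figure D2:**
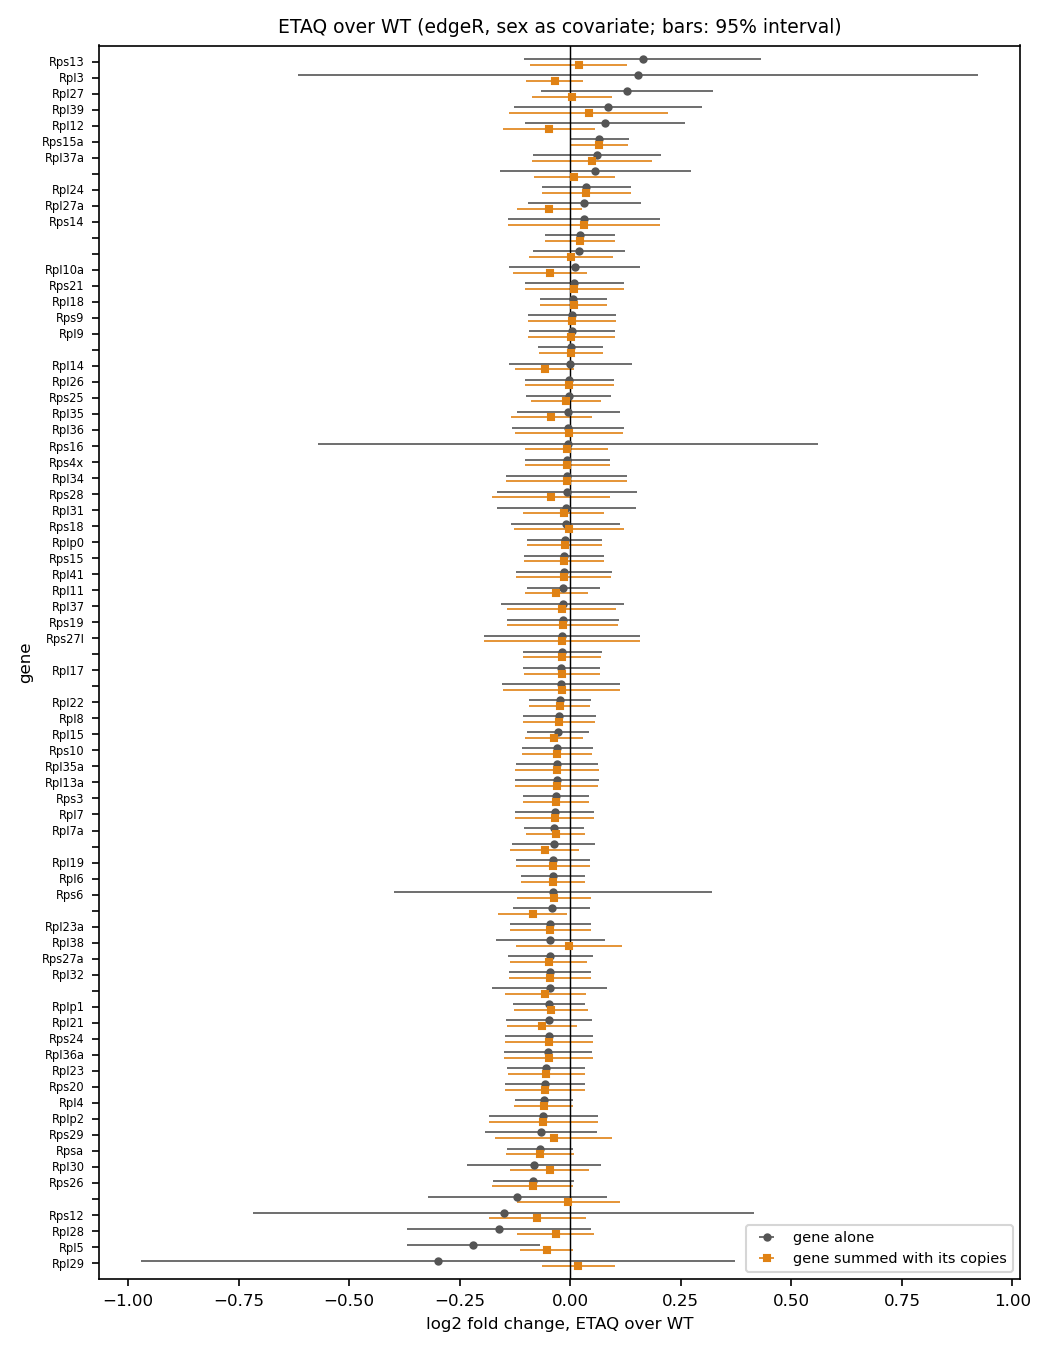
Log2 fold change of ETAQ over WT (x axis) with its 95% interval for each of the 76 ribosomal protein genes (y axis, with names for genes given in the text), for the gene alone and for the gene summed with its copies. No gene passed the test, and all 76 intervals of the sums lie within 1.2-fold.

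Rpl5 came nearest to the threshold. It had 11.5, 13.6, 12.9, 13.9, 11.8 and 12.4 normalised CPM in ETAQ mice 1, 5, 6, 8, 9 and 11, against 14.1, 13.5, 14.1, 16.01, 13.8 and 17.1 in WT mice 2, 3, 4, 7, 10 and 12. ETAQ mice were mostly below WT mice, and ETAQ mice 5 and 8 overlapped them. The mean was 12.7 ± 0.982 in ETAQ and 14.8 ± 1.43 in WT cords (SD, n = 6 each). The log2 fold change was −0.22, its SE 0.07 and its adjusted p in edgeR 0.181. Its copy Gm15500, to which most of the family's counts were assigned, averaged 150.2 ± 5.56 in ETAQ and 154 ± 7.61 in WT cords, a log2 fold change of −0.04 (adjusted p = 0.725). Rpl5 and its copies together averaged 163 ± 5.80 in ETAQ and 169 ± 6.98 in WT cords, a log2 fold change of −0.05 (adjusted p = 0.52). The sum thus gave a smaller log2 fold change than the Rpl5 row alone.

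**Figure D3:**
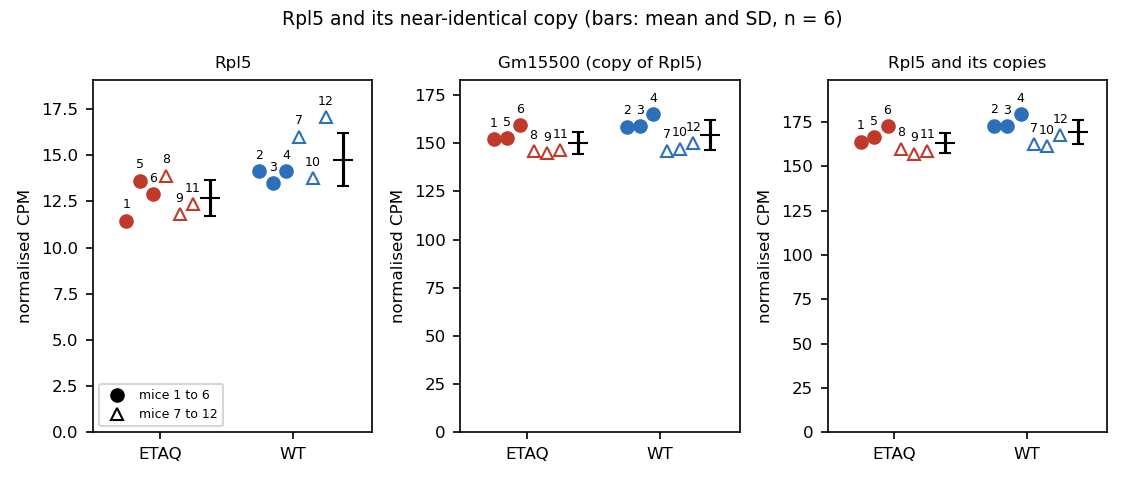
Normalised CPM (y axis) of Rpl5, of its copy Gm15500, and of Rpl5 with all its copies, per mouse in ETAQ and WT cords (x axis), with mean and SD; circles are mice 1 to 6 and triangles mice 7 to 12. ETAQ values of Rpl5 average 12.7 against 14.8 in WT, and those of the sum 163 against 169.

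The other large-subunit genes nearest to the threshold followed. Rpl4, whose extension lines the tunnel by which the new chain leaves, averaged 325 ± 7.90 in ETAQ and 339 ± 14.0 normalised CPM in WT cords (log2 −0.06, adjusted p = 0.521). Rpl28 averaged 11.1 ± 1.45 in ETAQ and 12.4 ± 1.41 in WT cords, a log2 fold change of −0.16 that became −0.03 with copies. Rpl27 had a log2 fold change of 0.13 alone and 0.00 with copies, and Rpl12, at the base of the stalk, 0.08 alone and −0.05 with copies. Rpl37a had a log2 fold change of 0.06, and Rpl39, a protein of the exit tunnel, of 0.08. None of these adjusted p values was under 0.521.

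In the small subunit, Rps15a was the gene with the smallest p among those above 0. It averaged 137 ± 4.66 in ETAQ and 131 ± 4.55 normalised CPM in WT cords, a log2 fold change of 0.07 (adjusted p = 0.478). Rpsa, also known as a laminin receptor, averaged 289 ± 12.5 in ETAQ and 303 ± 15.4 in WT cords (log2 −0.07, adjusted p = 0.512). Rps26, which touches the mRNA where it leaves the ribosome, averaged 65.5 ± 4.12 in ETAQ and 69.6 ± 5.28 in WT cords (log2 −0.08, adjusted p = 0.514). Rps20 had a log2 fold change of −0.06, and Rps13 0.16 alone and 0.02 with copies. The median over the 30 small-subunit genes was −0.02, and over the 43 large-subunit genes −0.03.

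The stalk recruits the elongation factors to the ribosome. Rplp0, its base, had 152, 148, 162, 138, 142 and 139 normalised CPM in ETAQ mice 1, 5, 6, 8, 9 and 11, against 154, 154, 158, 135, 145 and 144 in WT mice 2, 3, 4, 7, 10 and 12. In both genotypes the mice numbered 1 to 6 were the higher ones. Its log2 fold change for ETAQ was −0.01, beside −0.05 for Rplp1 and −0.06 for Rplp2. The mean levels per length were 236 TPM for Rplp0, 1175 TPM for Rplp1 and 267 TPM for Rplp2.

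Summed, the 76 genes gave 30896, 28244, 31446, 29559, 30019 and 29521 TPM in ETAQ mice, against 28730, 31972, 32116, 27565, 29493 and 28650 TPM in WT mice, in the same orders. The groups overlap throughout. The means were 29947 ± 1130.0 TPM in ETAQ and 29754 ± 1878 TPM in WT cords (SD, n = 6 each), 0.649% higher in ETAQ. With copies the summed TPM was 0.499% higher in ETAQ. In summed normalised CPM the difference was −1.58%, and −2.14% with copies, so its sign depends on the unit. As a share of expected counts, the genes with their copies took 1.01% ± 0.0334 in ETAQ and 1.01% ± 0.0748 in WT cords. The ratio of large-subunit to small-subunit TPM was 1.41 ± 0.0202 in ETAQ and 1.42 ± 0.0194 in WT cords.

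**Figure D4:**
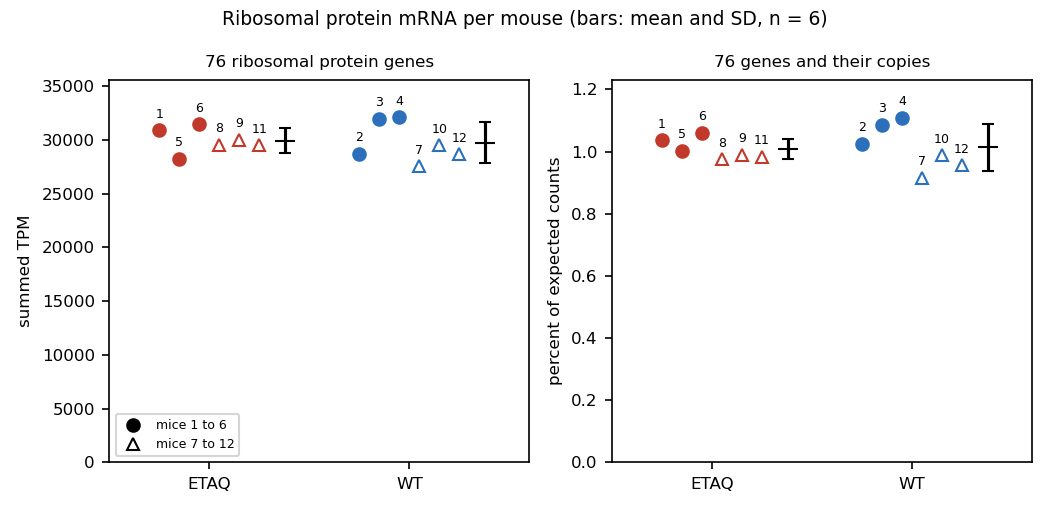
Summed TPM of the 76 genes, and the percent of expected counts in these genes and their copies (y axes), per mouse in ETAQ and WT cords (x axis), with mean and SD; circles are mice 1 to 6 and triangles mice 7 to 12. ETAQ and WT overlap in both, and in the second panel the circles, at 1.003% to 1.11%, lie above the triangles, at 0.916% to 0.990%.

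Transcript choice was read from length. The mean transcript length reported for a gene varied between mice for 57 of the 76 genes, most for Rps20, where the range was 26.2% of a mean of 971 bases. For Rps20, WT mouse 7 stood at 1159 bases and the other mice at 904 to 996. For 0 of the 76 genes did ETAQ and WT lengths not overlap, against 0.169% of all genes.

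Between the sets of mouse numbers a difference did pass the test. With sex and genotype as covariates, 13 ribosomal protein genes rose in mice 1 to 6 over mice 7 to 12 and 0 fell, while over all genes 4.93% rose and 2.96% fell. The median log2 difference was 0.12 (0.00 over all genes), and 68 of 76 genes were above 0. For 31 genes every mouse numbered 1 to 6 was above every mouse numbered 7 to 12, against 5% of all genes, and no gene was the other way round, against 3.86%. With copies added, 19 genes rose (5.02% over all rows in that fit).

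**Figure D5:**
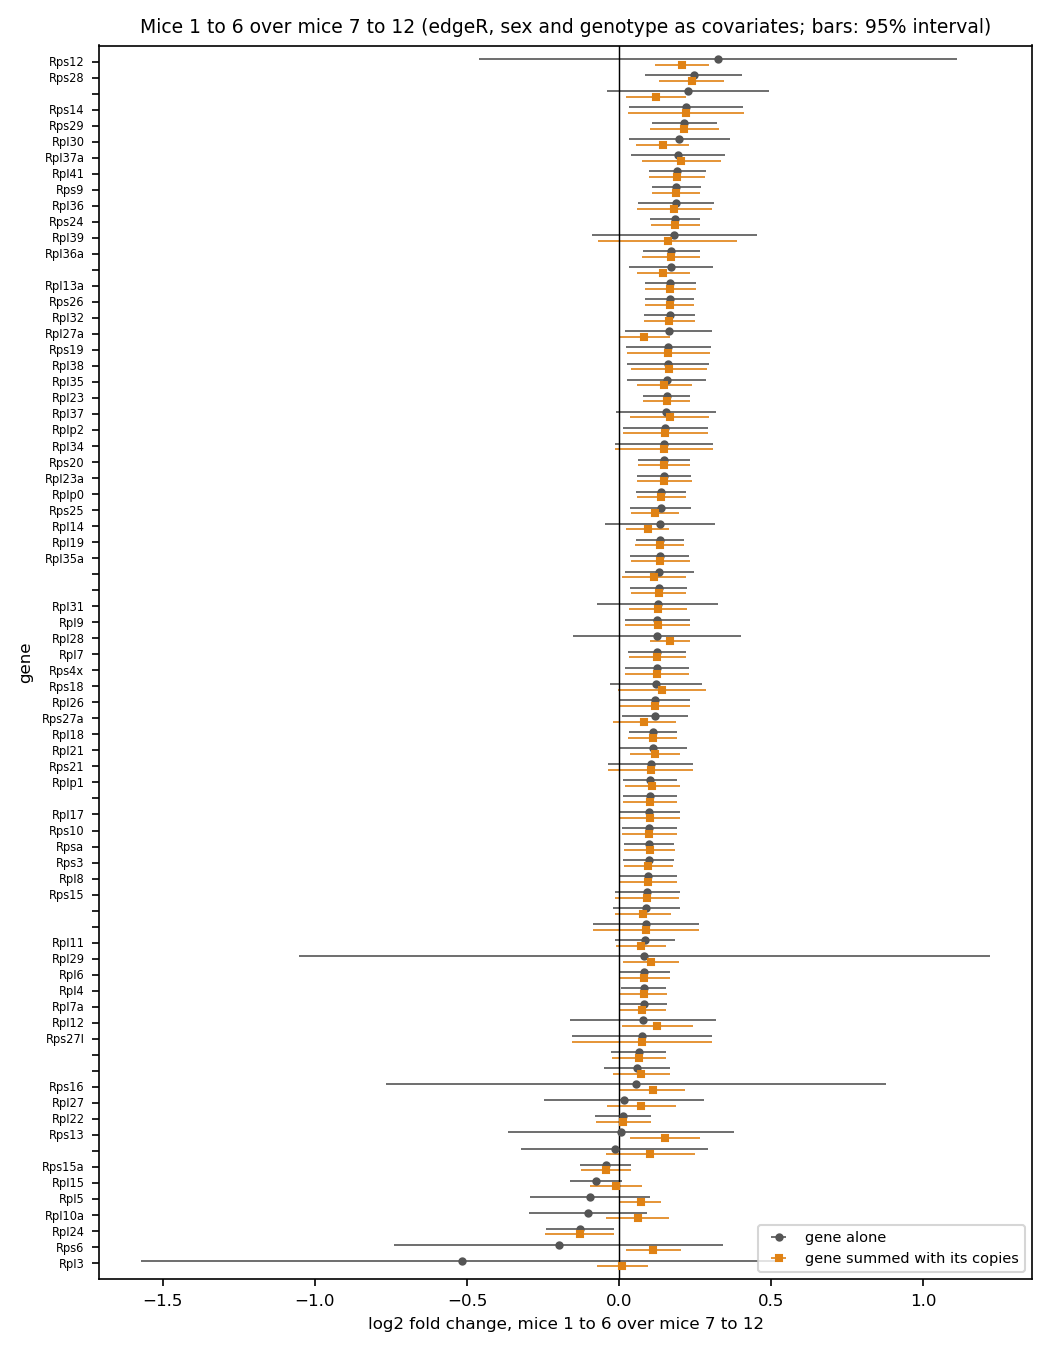
Log2 difference of mice 1 to 6 over mice 7 to 12 (x axis) with its 95% interval for each of the 76 ribosomal protein genes (y axis, with names for genes given in the text), for the gene alone and for the gene summed with its copies. Most points lie right of 0, and 13 genes alone and 19 sums passed the test.

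Rps9 led the small-subunit genes. It had 178, 175 and 185 normalised CPM in ETAQ and 174, 182 and 189 in WT mice of the numbers 1 to 6, against 161, 158 and 157 in ETAQ and 151, 159.9 and 160.2 in WT mice of the numbers 7 to 12. The 2 sets did not overlap, and the genotypes were mixed within each. The means were 181 ± 5.58 in mice 1 to 6 and 158 ± 3.77 in mice 7 to 12 (SD, n = 6 each), a log2 difference of 0.19 (edgeR adjusted p = 0.00649). Rps24 followed with 183 ± 5.37 against 159.6 ± 6.32 (log2 0.18, adjusted p = 0.0081), then Rps26 with 71.5 ± 3.25 against 63.5 ± 2.38 (log2 0.17, adjusted p = 0.0138). Rps29 and Rps20 passed as well. In the large subunit Rpl41, which encodes the shortest protein of the set, averaged 142 ± 5.92 against 121 ± 4.80 (log2 0.19, adjusted p = 0.0148). Rpl13a, Rpl19, Rpl23, Rpl23a, Rpl32 and Rpl36a passed too, as did Rplp0 in the stalk with a log2 difference of 0.14 (adjusted p = 0.0389).

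The genes that leaned the other way did not pass. Rpl24, which bridges to the small subunit, averaged 63.4 ± 3.13 in mice 1 to 6 and 68.2 ± 3.47 in mice 7 to 12 (log2 −0.13, adjusted p = 0.162). Rpl15, Rpl10a and Rps15a had log2 differences of −0.08, −0.10 and −0.04. The first 2 of these became −0.01 and 0.06 with copies added.

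The 13 calls rest on the 2 mice that break the near-coincidence of sex and number. Without ETAQ mouse 1, and likewise without ETAQ mouse 11, edgeR called 0 genes, with 15 and 10 under an unadjusted p of 0.05, while the median differences stayed at 0.12 and 0.11. Without any other single mouse, 9 to 16 genes rose. With sex left out of the fit 51 genes rose, against 10.9% of all genes. Besides the 13, these included Rpl6, Rpl7, Rpl7a, Rpl8, Rpl9, Rpl11, Rpl14, Rpl17, Rpl18, Rpl21, Rpl26, Rpl27a, Rpl34, Rpl35, Rpl35a, Rpl36, Rpl37, Rpl37a, Rpl38, Rplp1, Rplp2, Rpsa, Rps3, Rps4x, Rps10, Rps14, Rps15, Rps18, Rps19, Rps21, Rps25, Rps27a and Rps28. Among the sums with copies, Rpl28, Rpl30 and Rps12 were also called.

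Other markers moved with the mouse numbers. Summed red cell markers spanned 1890 to 3511 normalised CPM in mice 1 to 6 and 143 to 268 in mice 7 to 12, and all 5 passed. Marrow neutrophil markers spanned 80.4 to 149 against 0.286 to 3.10 (6 of 6 passed), and skeletal muscle markers 33.8 to 743 against 0.696 to 1.33 (5 of 5). Fibroblast and meningeal markers spanned 153 to 331 against 62.8 to 74.5 (4 of 4), and Schwann cell markers 320.2 to 748 against 75.1 to 98.7 (3 of 3). B cell markers spanned 3.21 to 6.45 against 0.251 to 0.485, and markers of cycling cells 18.2 to 39.0 against 5.21 to 6.88, each with 3 of 3 higher. Of 6 neuronal markers 2 were lower in mice 1 to 6, and no astrocyte, oligodendrocyte or microglial marker passed. Sensory ganglion markers were too low to test, with sums of 0.0760 to 3.403 against 0.107 to 0.253. The 3.403 was in ETAQ mouse 1, and the other mice numbered 1 to 6 had 0.0760 to 0.131. No defining marker was at 0 in all mice. The part of these cells in the ribosomal protein difference was not tested. Other short genes had a median above 0 as well: of 700 other genes under 1000 bases with a mean TPM of at least 20, 40 rose, or 5.71% against 4.93% of all genes, and 6 fell, with a median of 0.06; 61 of the 76 ribosomal protein genes are under 1000 bases. Of 1301 other genes with a mean TPM of at least 100, 48 rose (3.69%) and 59 fell, with a median of 0.00, and 63 of the 76 ribosomal protein genes reach that level. Of 85 nuclear oxidative phosphorylation genes 4 rose in edgeR (4.71%) and 0 fell, with a median of 0.08 and 72 above 0. At an unadjusted p under 0.05, 23 of them were higher and 0 lower. Of 76 mitochondrial ribosomal protein genes 0 passed in edgeR, 3 were higher and 1 lower at an unadjusted p under 0.05, and their median was 0.03. At that level 2026 of all 17189 genes tested were higher and 1738 lower.

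Within each set of numbers the genotype effect again gave no call. In mice 1 to 6, 0 of 76 genes passed for ETAQ over WT (0.803% of all genes), the median was −0.07, and 9 were lower at an unadjusted p under 0.05, against 4.92% of all genes. In mice 7 to 12, 0 passed (0.937%), the median was 0.02, and 4 were higher and 1 lower at that level, against 4% and 5.54% of all genes. The difference of the 2 effects passed for 0 of the 76 genes (0% of all genes) in edgeR, with 7 lower at an unadjusted p under 0.05, against 2.02% of all genes. Both contrasts hold 3 mice of each genotype and share the spread of all 12.

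Between the sexes the same near-coincidence returns. For females over males edgeR called 0 of 76 (0.0931% of all genes), but 49 were lower at an unadjusted p under 0.05, against 8.06% of all genes, and the median was −0.12. The lower genes with the smallest p were Rpl21 (log2 −0.19), Rpl36a (−0.16), Rps27a (−0.16) and Rpl41 (−0.18), at adjusted p values of 0.155 to 0.178. DESeq2 called 3 of these lower (0.89% of all genes), Rpl21, Rpl41 and Rps27a, the last of which encodes a ubiquitin fusion. The higher genes with the smallest p, each taken without its copies, were Rps6, Rps16, Rpl24 and Rpl5. Their log2 differences were 0.24, 0.30, 0.05 and 0.05, none under an adjusted p of 0.469. Rps6-ps4 and Gm15500, which took most counts of the Rps6 and Rpl5 families, had the opposite sign. Their log2 differences were −0.11 and −0.09, and neither passed the test. Rps16 with its copies spanned 56.2 to 64.9 normalised CPM in females and 60.6 to 70.7 in males. With the set of mouse numbers as a covariate 0 passed (0.0524% of all genes), 3 were under an unadjusted 0.05, and the median was −0.03.

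The genotype effect taken within each sex, in a fit without the set of mouse numbers, had opposite signs for most genes. ETAQ mouse 1 was the one ETAQ female numbered 1 to 6, and ETAQ mouse 11 the one ETAQ male numbered 7 to 12. A difference between the sets therefore enters both effects. In females the median log2 fold change of ETAQ over WT was 0.06, with 60 of 76 above 0 and 0 called (0.739% of all genes). In males it was −0.10, with 6 of 76 above 0 and 0 called (0.669%). In summed normalised CPM of the 76 genes, ETAQ females 1, 8 and 9 had 8091, 7866 and 7695. WT females 7, 10 and 12 had 7429, 7822 and 7645. Mouse 7 was the lowest of all 12 mice, and its part in the female effect was not tested. The interaction, the female effect minus the male effect, had a median of 0.16 and passed for 0 of the 76 genes (0% of all genes), while 27 ribosomal protein genes were higher at an unadjusted p under 0.05, against 2.67% of all genes. Rpl36 had the smallest p of them. It stood at 60.2, 54.9 and 55.6 normalised CPM in ETAQ females, against 48.3, 54.4 and 49.99 in WT females, and at 58.9, 58.0 and 54.8 in ETAQ males, against 61.4, 65.7 and 65.9 in WT males. Its interaction was 0.33 on the log2 scale (edgeR adjusted p = 0.901). With the set of mouse numbers as a covariate, the median interaction was 0.10, 0 of the 76 genes passed in edgeR (0% of all genes), and 7 were higher and 0 lower at an unadjusted p under 0.05, against 2.02% and 1.95% of all genes. All WT females are numbered 7 to 12 and all WT males 1 to 6, and in that fit the interaction has the same size as the difference of the genotype effects between the sets, with the sign turned. A genotype effect that depends on sex and one that depends on the set therefore cannot be told apart in these mice.

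The start sites bear on how these mRNAs are controlled. Of the 76 genes, 56 had a start in the RefSeq promoter table (GRCm38.p6), and for 12 of them, 21.4%, the sense strand at an annotated start opened with a C followed by C or T to a run of at least 5, against 3.01% of the 27025 genes in the table. The first 20 genomic bases from an annotated start are shown for 5 of these genes, and were not compared with transcripts. This run is the feature by which mTOR complex 1 reaches such mRNAs. Capitals mark the run, and the genes were chosen to cover both subunits and the stalk. They lie at chr14:18270967-18270986 (minus strand) for Rpl15, chr7:4792965-4792984 (plus) for Rpl28, chr4:86857348-86857367 (minus) for Rps6, chr7:118116128-118116147 (minus) for Rps15a and chr7:141447651-141447670 (plus) for Rplp2. A match describes the letters at 1 annotated start, and a start placed a few bases off would miss it.
Rpl15: CTTCCTTTCCTCTggcggca
Rpl28: CTCTTTCCgtctccggccgc
Rps6: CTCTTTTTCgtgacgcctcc
Rps15a: CTTCCCTCgccggtgagtga
Rplp2: CTTTCgccgccggacgccgc

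Few genes around ribosome production passed the test in ETAQ cords. Over all genes, edgeR called 1.92%, and 4.53% were higher and 6.36% lower at an unadjusted p under 0.05. Of 20 other mRNAs of the oligopyrimidine class 0 passed in edgeR, with a median log2 fold change of −0.03; the nearest were Hnrnpa1 (0.10, adjusted p = 0.101) and the noncoding Gas5 (−0.09, adjusted p = 0.315), 1 each way under an unadjusted 0.05. Among 45 nucleolar assembly genes 0 passed, 2 being higher and 2 lower under an unadjusted 0.05, with Ebna1bp2 at 0.12 and Nip7 at −0.11. Of 15 escorts that carry new ribosomal proteins to the ribosome 0 passed and Aamp (−0.07) was the 1 gene under an unadjusted 0.05; Heatr3 had −0.06. Of 11 genes on a list of regulators of ribosomal gene transcription 0 passed, with Mycl (0.17) and the assembly GTPase Gtpbp4 (0.08) under an unadjusted 0.05. Of 14 genes of nucleolar stress and of surplus ribosomal proteins 0 passed; Gcn1l1, which links stalled ribosomes to the kinase GCN2, had 0.10 (adjusted p = 0.125), and Ube2o, which marks surplus ribosomal proteins with ubiquitin, 0.07, both under an unadjusted 0.05. Of the 7 ribosomal protein genes outside the name rule 0 passed and 1 was lower under an unadjusted 0.05; Rpl7l1 had −0.04.

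A pair of genes on these lists passed. Polr1a, the largest subunit of the RNA polymerase that makes ribosomal RNA, was the 1 of 14 polymerase I genes to fall in ETAQ cords. It had 38.3, 39.7, 38.8, 40.0, 39.3 and 41.0 normalised CPM in ETAQ mice 1, 5, 6, 8, 9 and 11, against 43.6, 42.9, 42.6, 43.8, 42.9 and 47.3 in WT mice 2, 3, 4, 7, 10 and 12. Every ETAQ mouse was below every WT mouse. Its log2 fold change was −0.15, its SE 0.03 and its adjusted p in edgeR 0.0347; over all genes, 1.34% fell by that test. The call was lost with library totals in place of TMM (adjusted p = 0.105) and on log2(TPM + 1) with limma (adjusted p = 0.600). In edgeR it stayed without ETAQ mouse 11 (adjusted p = 0.0272) and without WT mouse 4 (0.0494). Without any other single mouse it was lost, at adjusted p values of 0.0555 to 0.0826. Within mice 1 to 6 its adjusted p was 0.428, and within mice 7 to 12 it was 0.203. Sesn2, which restrains mTOR complex 1, was the 1 of 22 genes of that list to pass, where 1.92% of all genes did. It averaged 24.8 ± 0.801 in ETAQ and 19.3 ± 0.871 normalised CPM in WT cords (log2 0.36, edgeR adjusted p = 7.15e-05). A pair of cell type markers passed in the same fit: Chat, the acetylcholine-synthesising enzyme of motor neurons, averaged 15.8 ± 0.978 in ETAQ and 24.6 ± 1.12 normalised CPM in WT cords (log2 −0.64, adjusted p = 2.62e-06), and the astrocyte glutamate transporter Slc1a3 averaged 151 ± 7.96 in ETAQ and 133 ± 5.02 in WT cords (log2 0.19, adjusted p = 0.0141). Their part in the Polr1a and Sesn2 differences was not tested. Translation and ribosome number were not measured.

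Between the sets of mouse numbers, 2 of the 20 other oligopyrimidine mRNAs rose in mice 1 to 6, the polyA-binding protein gene Pabpc1 (log2 0.35, adjusted p = 5.66e-04) and Tpt1 (0.20, adjusted p = 0.00587). Of the 15 escorts, the importin genes Ipo9 (−0.12, adjusted p = 0.0382) and Ipo5 (−0.11, adjusted p = 0.0457) fell. Over all genes, 4.93% rose and 2.96% fell. No gene of the other lists, of 45, 14, 22, 11, 14 and 7 genes, passed in edgeR. At an unadjusted p under 0.05 they held 6 higher and 9 lower genes in all, against 2026 higher and 1738 lower of 17189 tested.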

How the data were processed

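RNA of 12 whole spinal cords was measured. The deposited files give an expected count for every gene in every mouse, which per their headers is the counter's estimate of assigned read pairs, as deposited by the authors and not normalised. They also give TPM, which the authors' software had divided by transcript length and scaled to a fixed total before the files were deposited, and a mean transcript length per gene. Bowtie2 2.2.0 and RSEM 1.2.12 appear in the submitters' processing notes. The build, the annotation and the strand setting are not given in the sources used here.

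Expected counts were rounded and analysed in R 4.3.3 with edgeR 4.0.16 (filterByExpr on the 4 genotype-by-sex groups, TMM, robust quasi-likelihood test, Benjamini-Hochberg threshold 0.05 over 17189 genes). The genotype fit had sex as a covariate; sexes, their interaction and sets of mouse numbers were tested in fits of all 12 mice, two-sided. Library totals of 23595944 to 41452700 set the precision. DESeq2 1.42.0, limma 3.58.1 (voom, and trend on log2(TPM + 1)), other scalings, no filter, other covariates, each mouse left out and summed copies were the alternatives. Copies came from shared 75-base sequences of GENCODE M21 transcripts, matched by ID for 96.6% of rows. The fits were tested on simulated data.

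Members and lists were chosen with earlier results of these data known, and support nothing by their choice. Named were the stalk genes and Rpsa; the 4 highest and lowest by TPM; the 6 higher and 6 lower genes by p for genotype; the 4 each way for sex and set; the 4 largest and smallest spreads; every gene called in any fit; relatives; genes below the TPM minimum; and per list the called genes or the 2 with the smallest p. Genes with a mouse standing apart and Rpl36 were named after their values were seen. The copy sums, the set as a covariate of the interaction, and leaving out each mouse for the set comparison, were added after seeing the data. Some genes that this rule names are not reported here.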

Additional observations from a re-analysis of the deposited data

Results flagged for a closer look

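In 5 of 152 combinations of a gene and a genotype, 1 of the 6 mice stood apart, by a gap to its nearest neighbour above Dixon's critical share of the group's range; chance flags about 1 in 20 groups, so the number is not above that. Rpl14 was highest in ETAQ mouse 6, at 138 normalised CPM beside 118 to 121 in the other ETAQ mice (gap 0.826 of the range). Rpl12 was highest in ETAQ mouse 9, at 9.76 beside 8.15 to 8.58 (gap 0.733). Among WT mice, Rps16 was highest in mouse 7, at 26.1 beside 8.66 to 13.4 (gap 0.729), and Rps10 was highest in mouse 4, at 100.1 beside 88.2 to 92.3 (gap 0.655). Rpl29 was lowest in WT mouse 10, at 35.8 beside 70.9 to 82.3 (gap 0.754). That is one of the 4 mice in which a large part of the counts of Rpl29 and its copies was assigned to the copies. Summed TPM and the summed share of counts held no such mouse in either genotype.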

How the results depend on the processing

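For ETAQ over WT, 0 genes were called under every alternative run, in all mice, within each sex and within each set of mouse numbers, and the interaction stayed at 0 as well; in all mice 1 to 7 genes had an unadjusted p under 0.05. Across the results on the ribosomal protein genes, 88 summary values kept their call or size and 4 moved. Of the values of named genes, 449 kept direction and call, 45 kept direction and lost the call, and 3 changed sign. The 4 that moved concern sex, where DESeq2 called 3 genes in place of 0, and the sets, where 51 genes were called without sex as a covariate and leaving out single mice gave 0 to 16. The 3 sign changes were Rpl27 at −0.10 summed with its named pseudogenes, Rpl12 at −0.049 summed with its copies, and Rps20 at 0.016 on log2(TPM + 1); none passed the test on either side, and the cause was not tested. The 45 lost calls all concern the sets, 26 of them without ETAQ mouse 1 or 11, where by construction 1 set holds a single sex. The lost genotype calls of Polr1a, given with that gene above, lie outside this tally. No paired analysis was possible because the genotypes share no replicate numbers. The lowest count of a kept gene in any library was 142.72, and 66 of the 76 are uncertain in how their reads were divided.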
